A study of Homo sapiens with 6 samples.

Results

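The 40 genes described here act in the DNA damage response and in DNA repair: homologous recombination, the Fanconi anaemia pathway, mismatch repair, damage signalling, end joining and excision repair. They were taken as a list by name, kept where their counts averaged 50 or more across libraries. All 40 did, among 11909 measured genes of 52992 listed. The cells are J82, a human bladder cancer cell line in long use, grown close to confluence. One line, tet-ZFP36L1, carries ZFP36L1 under doxycycline control, and the other, tet-control, is its control. Each line was taken without doxycycline (0 h) and after 6 h and 24 h with doxycycline at 1 µg/mL, so both lines received the drug. The 6 groups hold 1 library each, and the labels do not say whether either line is 1 clone. No spread between cultures could be estimated, no test was made, and no p-value is given. In RNA from whole cultures, fewer cells expressing a gene and less RNA per cell cannot be told apart.

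ZFP36L1 is an RNA-binding protein that attaches to AU-rich elements in the 3′ UTR of target mRNAs and recruits the enzymes that shorten the tail and remove the cap, so that the mRNA decays. Homologous recombination copies an intact sister chromatid into a double-strand break, the Fanconi pathway unhooks crosslinks between DNA strands, and end joining religates broken ends without a template. Many genes of the first 2 pathways are transcribed under E2F control around S phase, whereas end-joining and excision-repair genes are generally expressed throughout the cell cycle.

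Library totals lay between 20739025 and 21380480 estimated counts. Levels are in CPM, counts scaled with TMM factors to a library of 1000000. In the order 0, 6 and 24 h, ZFP36L1 had 220.2, 3127 and 3133 CPM in tet-ZFP36L1 and 233.8, 223.3 and 206.0 CPM in tet-control. The induced gene was thus high only in the libraries labelled with both the construct and doxycycline. Of 16 epithelial and urothelial markers 6 were measured, led by KRT8 (258.4 to 753.1 CPM) and KRT18 (363.8 to 763.8 CPM), and with the luminal regulators PPARG (1.14 to 16.6 CPM) and FOXA1 (8.19 to 18.7 CPM) among them. UPK2 and UPK3A were at 0 in all libraries, and GATA3 and CDH1 reached at most 1.28 and 0.75 CPM. Mesenchymal genes were present (6 of 7 measured), and the lines differed in them without doxycycline: FN1 stood at 381.9 CPM in tet-control and 9908 CPM in tet-ZFP36L1 at 0 h. The leukocyte genes PTPRC and CD3E and the endothelial genes KDR, TEK and VWF stayed at or below 0.16 CPM, and of 6 leukocyte markers 1 was measured, CD68 (1.04 to 28.2 CPM).

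The 7 bases TATTTAT are the core of the AU-rich element that ZFP36 proteins bind. They occurred at least once in the annotated 3′ UTR of 12 of the 40 repair genes (30%), against 27.8% of 10647 measured genes whose 3′ UTR has 50 bases or more. The sites of 3 genes are shown because these genes lie at opposite ends of the 24 h results: BARD1 and RAD51AP1 were among the lowest members and TP53BP1 among the highest. Each line gives 30 bases, 5′ to 3′ on the gene's strand, from GENCODE 29 on GRCh38, with the searched letters in capitals. The window of BARD1 is chr2:214726974-214727003 (minus strand) and that of RAD51AP1 is chr12:4556500-4556529 (plus strand). The windows of TP53BP1 are chr15:43405602-43405631 and chr15:43405290-43405319 (minus strand).
BARD1: ttgtcatttttTATTTATaacagactttaa
RAD51AP1: caggtatggcaTATTTATcatcaaggacag
TP53BP1, first site: agcagttagtcTATTTATaaacataattac
TP53BP1, second site: taagccgcagaTATTTATttgtgtgtggct
The RAD51AP1 site lies in RAD51AP1-205, a transcript annotated for nonsense-mediated decay, which had the highest mean TPM of that gene. With protein-coding transcripts alone, 11 members held the letters. The other members with them were FANCD2, FANCA, FANCG, FANCL, BRCA1, PALB2, RBBP8, TOPBP1 and CHEK1.

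Over all 10647 genes, those with at least 1 copy had a median induction difference of -0.29 at 6 h and -0.27 at 24 h, and those without had 0.09 and 0.05. That measure sets the log2 change since 0 h of tet-ZFP36L1 against the one of tet-control, as the first minus the second. Genes with a copy also had longer 3′ UTRs, with a median of 2159.5 bases against 601 without (members: 1059.5 and 600). The letters and the length were not separated. Among the repair genes, the 12 with a copy had medians of -0.01 at 6 h and -0.25 at 24 h, and the 28 without had 0.07 and -0.13. With protein-coding transcripts alone the members' 24 h medians were -0.24 with a copy and -0.20 without. Of the 12 members with the letters, 0 were lower by at least 1.5-fold at 6 h and 2 (16.7%) at 24 h, beside 27.9% and 29.5% of the 2960 genes with them and 8.96% and 13.1% of the 7687 without. The 2 are BARD1 and RAD51AP1, and RAD51AP1 has no copy when protein-coding transcripts alone are read. A match is a description of the annotated sequence, not a binding site.

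Promoters were read for the second theme, E2F. Windows from 250 bases before to 50 bases after annotated start sites were found in RefSeq (GRCh38.p14) for 35 of the 40 members. The letters searched were TTTGGCGC, TTTCCCGC, TTTGGCGG, TTTCCCGG and TTTCGCGC on both strands. They were present for 11 of the 35 (31.4%), against 10.3% of 9092 measured genes and 5.76% of 27305 genes in the table. Counted by window, since a gene can have several start sites, the shares were 20.4% for members and 7.58% for measured genes. Below, 4 of the 11 are shown: FANCD2 and EXO1 as S phase repair genes, and XPC and DDB2 because both were past 1.5-fold at 24 h, in opposite directions. The windows are chr3:10026424-10026453 (plus strand) for FANCD2, chr1:241848197-241848226 (plus) for EXO1, chr3:14178822-14178851 (minus) for XPC and chr11:47214986-47215015 (plus) for DDB2.
FANCD2: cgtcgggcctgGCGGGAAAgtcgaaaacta
EXO1: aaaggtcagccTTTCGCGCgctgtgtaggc
XPC: cctgcgcccTTTCCCGCctctcgcgagaac
DDB2: ccctgggcatgTTTGGCGGgaagttggctt
The remaining 7 were PARP1, MSH6, TOPBP1, ATR, RAD50, XRCC2 and XRCC6. Members with the letters had a median induction difference of -0.20 at 24 h and members without them -0.21, so the members' 24 h values did not separate by these letters.

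At 0 h, before doxycycline, no member differed between the lines by 1.5-fold (0.585 on the log2 scale), where 7.98% of all measured genes were lower and 10% higher in tet-ZFP36L1. Smaller differences leaned to lower values in tet-ZFP36L1, with 26 of 40 members (65%) below 0, beside 50.3% of all genes. Counting intervals lay below 0 for 15 members (37.5%) and above 0 for 5 (12.5%), beside 34.0% and 32.5% of all genes. These 0 h levels enter the induction differences at 6 and 24 h. RAD54L had the lowest difference, -0.40 (95% counting interval -0.52 to -0.28), and LIG4 the highest, 0.31. By length-corrected level (mean TPM over the libraries), the members spanned from XRCC6 at 518 TPM (464 to 562) and XRCC5 at 438 TPM (401 to 492) down to PALB2 at 7.84 TPM (6.68 to 9.13) and FANCB at 5.60 TPM (3.26 to 7.19). XRCC6 and XRCC5 encode the Ku heterodimer that caps broken ends, and ERCC1 (180 TPM, 164 to 219) and PARP1 (152 TPM, 137 to 194) came next. The ranges of ERCC1 and PARP1 overlapped over the libraries, as did those of XRCC6 and XRCC5 and those of PALB2 and FANCB. BRCA1 was the most constant member in CPM, its highest library being 1.08 times its lowest, and CHEK2 the most variable, at 2.28 times.

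After 6 h with doxycycline few repair genes were past 1.5-fold. By the induction difference, 0 of 40 were lower by at least 1.5-fold (14.3% of all measured genes were) and 1 was higher (7.02%). Their median was 0.07, beside -0.01 for all genes, and 16 of 40 were below 0, beside 50.6% of all genes. The counting interval of 9 members (22.5%) lay wholly below 0 and that of 10 (25%) wholly above it, beside 31.1% and 29.5% of all genes.

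At 24 h more members were low. In all, 6 of 40 (15%) were lower by at least 1.5-fold, beside 17.4% of all measured genes, and 3 (7.5%) were higher, beside 13.9%. The share lower was thus near the background, and the share higher was below it. At a threshold of 2-fold no member was called, where 4.69% of all genes were lower and 1.6% higher at 6 h, and 6.5% and 4.69% at 24 h. The members' median was -0.20, beside -0.02 for all genes, and 28 of 40 (70.0%) were below 0, beside 51.6%. Counting intervals lay below 0 for 22 members (55%) and above 0 for 7 (17.5%), beside 36.7% and 30.7% of all genes. The tet-ZFP36L1 library of 24 h was the lowest of the 6 for 22 members, beside 29.1% of all genes, and the highest for 7, beside 22.7%. That library also had the largest TMM factor, 1.115 (0.941 to 1.006 in the others), and more genes with at least 10 counts, 15695 against 14515 to 14956. The part of this in the results was not tested. Both comparisons use the same 0 h libraries, so the values at 6 and 24 h are given side by side only.

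**Figure D1:**
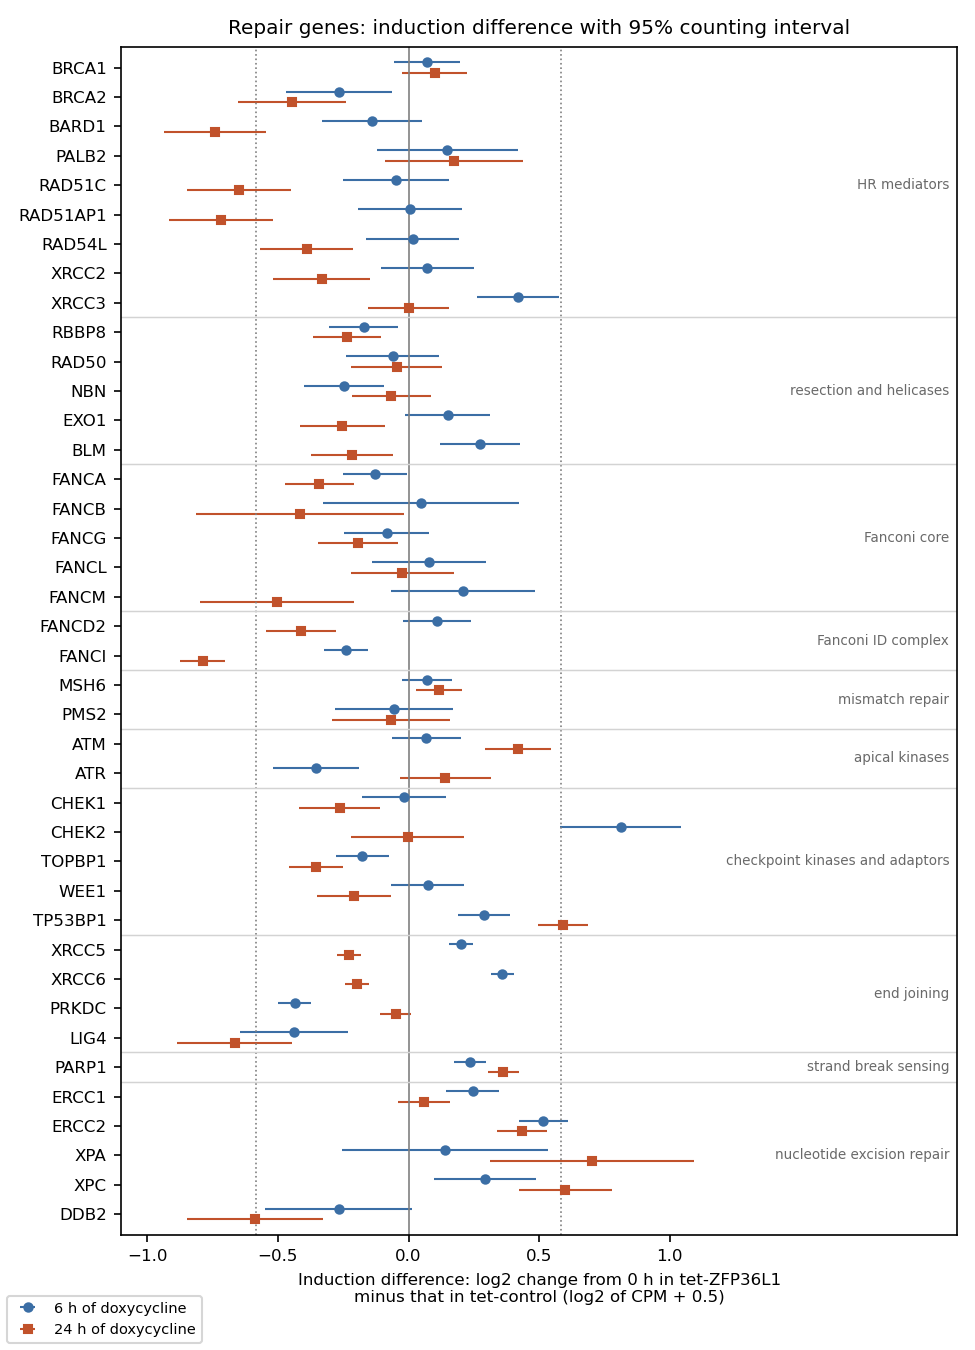
Induction difference of the 40 repair genes (x axis, log2 of CPM + 0.5; y axis, genes grouped by role) at 6 h (blue circles) and 24 h (orange squares), with 95% counting intervals as bars and 1.5-fold as dotted lines. At 24 h, 6 genes lie at or beyond the left dotted line (BARD1, RAD51C, RAD51AP1, FANCI, LIG4, DDB2) and 3 at or beyond the right one (TP53BP1, XPA, XPC); at 6 h only CHEK2 is beyond a line.

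The scaling bears on these counts. Under plain CPM the all-gene median at 24 h moved from -0.02 to 0.15, and the shares of all genes lower and higher went from 17.4% and 13.9% to 12.1% and 20.7%. Equal housekeeping levels moved the all-gene median to 0.40, with 6.62% lower and 35.9% higher, and the deposited TPM moved it to 0.10, with 13.4% and 18.9%. The 31 housekeeping genes were not level themselves. Under TMM scaling their median at 24 h was -0.38, with 12 lower by 1.5-fold (38.7%) and 1 higher (3.23%). Plain CPM left 1 member lower and 5 higher, and equal housekeeping levels left 0 lower and 7 higher. The members' median stayed below that of all genes at 24 h in each, at -0.031, 0.22 and -0.06. The sign of small differences depended on the scaling as well. Of the 29 members whose interval left out 0 at 24 h, 14 had the other sign under at least 1 alternative, 13 of them with equal housekeeping levels, and at 6 h 1 of 19 did. For this reason the recombination, resection, Fanconi core, end-joining and excision repair groups are also described below by their position against the all-gene median, which moves with the scaling.

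**Figure D2:**
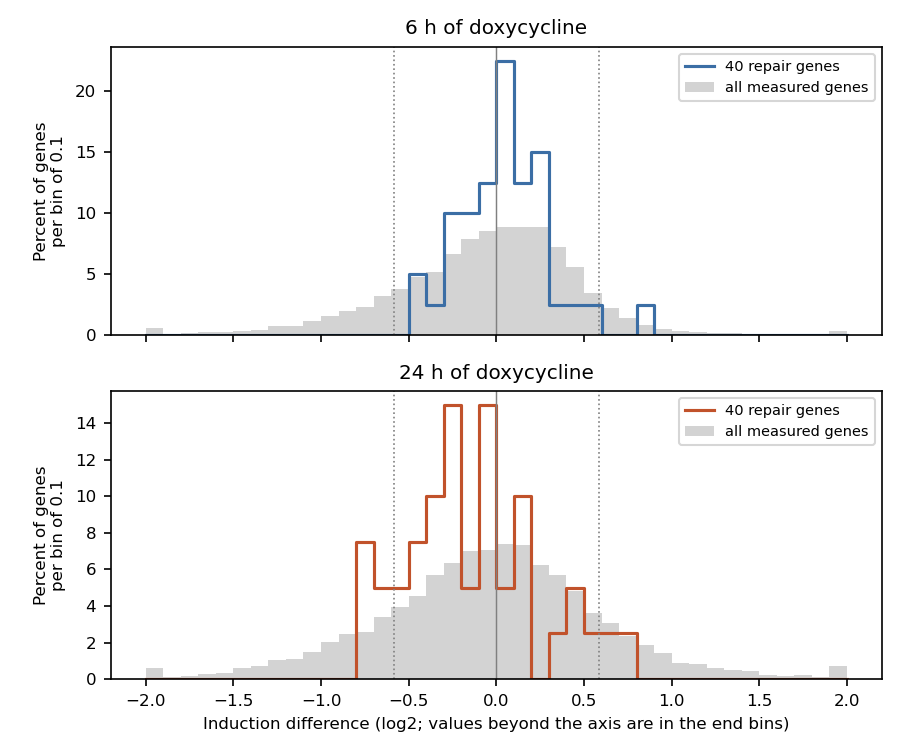
Distribution of the induction difference (x axis, log2; y axis, percent of genes per bin of 0.1) for the 40 repair genes (line) and all measured genes (grey bars), at 6 h and 24 h, with 1.5-fold as dotted lines. The members' median is 0.07 at 6 h and -0.20 at 24 h, beside -0.01 and -0.02 for all genes, and the members do not reach the tails of the grey distribution.

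Genes of homologous recombination were the largest group. Of 9 (BRCA1, BRCA2, BARD1, PALB2, RAD51C, RAD51AP1, RAD54L, XRCC2 and XRCC3), 3 (33.3%) were lower by 1.5-fold at 24 h and none at 6 h. Over all measured genes these shares were 17.4% and 14.3%. Their median induction difference was 0.02 at 6 h and -0.39 at 24 h, and 6 of 9 lay below the all-gene median at 24 h under each scaling tried, although their own median became 0.03 with equal housekeeping levels.

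BARD1, the obligate partner of BRCA1 in its ubiquitin ligase (ENSG00000138376; GRCh38 chromosome 2, 214725646 to 214809711, minus strand), had 39.3, 41.8 and 43.6 CPM in tet-control and 48.9, 47.2 and 32.3 CPM in tet-ZFP36L1, again ordered by time. Its level was thus highest in tet-ZFP36L1 at 0 h and lowest in the same line at 24 h. The induction difference was -0.14 (-0.33 to 0.05) at 6 h and -0.74 (-0.94 to -0.55) at 24 h. It was past 1.5-fold at 24 h under 6 of 8 alternatives, and stood at -0.57 with plain CPM and -0.32 with equal housekeeping levels.

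RAD51AP1, a recombination accessory protein (ENSG00000111247; chromosome 12, 4538798 to 4560048, plus strand), stood at 40.5, 39.0 and 43.8 CPM in tet-control and 42.5, 41.1 and 27.8 CPM in tet-ZFP36L1. The 5 other libraries were within a narrow range and tet-ZFP36L1 at 24 h was below them all. Its induction difference was 0.01 (-0.19 to 0.20) at 6 h and -0.72 (-0.92 to -0.52) at 24 h, with -0.55 under plain CPM, -0.30 with equal housekeeping levels and -0.44 with the deposited TPM. At 6 h it became 0.65 when only protein-coding transcripts were summed.

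RAD51C, a recombination mediator (ENSG00000108384; chromosome 17, 58692573 to 58735611, plus strand), stood at 43.3, 38.9 and 47.1 CPM in tet-control and 39.9, 34.6 and 27.4 CPM in tet-ZFP36L1. Both lines were lower at 6 h than at 0 h, and they parted at 24 h. The induction difference was -0.05 (-0.25 to 0.15) at 6 h and -0.65 (-0.85 to -0.45) at 24 h. It was past 1.5-fold under 3 of 8 alternatives, with -0.48 under plain CPM, -0.23 with equal housekeeping levels and -0.58 under each of the other 3 that ended the call.

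BRCA1, the ubiquitin ligase subunit that commits breaks to recombination, had 100.4, 103.5 and 100.1 CPM in tet-control and 96.6, 104.7 and 103.3 CPM in tet-ZFP36L1. Its induction difference was 0.07 (-0.06 to 0.20) at 6 h and 0.10 (-0.02 to 0.22) at 24 h. The small values moved with the scaling: at 24 h BRCA1 had 0.27 with plain CPM, 0.26 after centring by expression, 0.36 with the deposited TPM and 0.52 with equal housekeeping levels, and at 6 h it had -0.10 with the deposited TPM. BRCA2, a mediator of recombination at breaks, had -0.27 (-0.47 to -0.06) and -0.45 (-0.65 to -0.24), both intervals below 0 and neither value past 1.5-fold. From 0 h to 6 h BRCA2 changed by 0.27 (0.12 to 0.41) in tet-control and by -0.001 (-0.15 to 0.14) in tet-ZFP36L1. The 6 h difference was thus set by the control line. The deposited TPM turned the direction of the BRCA2 difference at both times, to 0.32 at 6 h and 0.43 at 24 h, and equal housekeeping levels brought the 24 h value to -0.03. The other 4 of the group (PALB2, RAD54L, XRCC2 and XRCC3) lay between 0.02 and 0.42 at 6 h and between -0.39 and 0.17 at 24 h.

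The split of BRCA2 between transcripts shows how far single transcripts can be read here. BRCA2-201 held 53.1%, 68.7% and 87.1% of the gene's estimated counts in tet-control and 41.5%, 65.9% and 1.75% in tet-ZFP36L1, while BRCA2-206 held 36.2%, 24.8% and 0.14%, and 51.9%, 27.7% and 82.3%. Both are annotated as protein coding. The gene totals moved little beside these shares, and no measure of the uncertainty of the assignment was used, so transcript values are descriptions of the estimates.

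Resection and helicase genes prepare and dissolve recombination intermediates: RBBP8 (CtIP) and RAD50 with NBN start resection, EXO1 extends it, and BLM unwinds joint molecules. None of the 5 was past 1.5-fold at either time. Their median was -0.06 at 6 h and -0.22 at 24 h, and all 5 lay below the all-gene median at 24 h, except that 3 did after centring by expression and 4 with the deposited TPM, and their own median became 0.21 with equal housekeeping levels. BLM had 0.27 (0.12 to 0.43) at 6 h and -0.22 (-0.37 to -0.06) at 24 h. EXO1 had 0.15 (-0.01 to 0.31) and -0.25 (-0.42 to -0.09), and the other 3 lay between -0.25 and -0.06 at 6 h and between -0.24 and -0.05 at 24 h. RAD50 shares 78.6% of its 31-base words with other annotated genes, mainly the overlapping AC116366.3. That gene has no value among the gene counts used here. Whether the sharing affected the counts of RAD50 was not tested.

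In the Fanconi core complex, which ubiquitinates the FANCD2 and FANCI pair at a crosslink, none of 5 genes was past 1.5-fold. The median of FANCA, FANCB, FANCG, FANCL and FANCM was 0.05 at 6 h and -0.34 at 24 h, and 5 of 5 lay below the all-gene median at 24 h (4 of 5 with the deposited TPM, with equal housekeeping levels, after centring by expression or with protein-coding transcripts), with their own median at 0.08 under equal housekeeping levels. FANCM, the DNA translocase that anchors the complex, had 0.21 (-0.07 to 0.48) at 6 h and -0.50 (-0.80 to -0.21) at 24 h. FANCA, a core subunit, had -0.13 (-0.25 to 0.00) and -0.34 (-0.47 to -0.21). The other 3 lay between -0.08 and 0.08 at 6 h and between -0.42 and -0.02 at 24 h.

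FANCI, the partner of FANCD2 in the clamp on DNA (ENSG00000140525; chromosome 15, 89243949 to 89317261, plus strand), had the lowest 24 h value of the 40 genes under TMM scaling, with an interval that overlaps that of BARD1. It stood at 226.0, 225.7 and 237.3 CPM in tet-control and 252.9, 214.0 and 153.5 CPM in tet-ZFP36L1. The tet-control libraries were nearly level, while tet-ZFP36L1 began above them and ended below them. Its induction difference reached -0.24 (-0.32 to -0.15) at 6 h and -0.79 (-0.87 to -0.70) at 24 h. It became -0.58 after centring by expression and -0.36 with equal housekeeping levels, both short of 1.5-fold. FANCD2 had 0.11 (-0.02 to 0.24) at 6 h and -0.41 (-0.55 to -0.28) at 24 h.

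**Figure D3:**
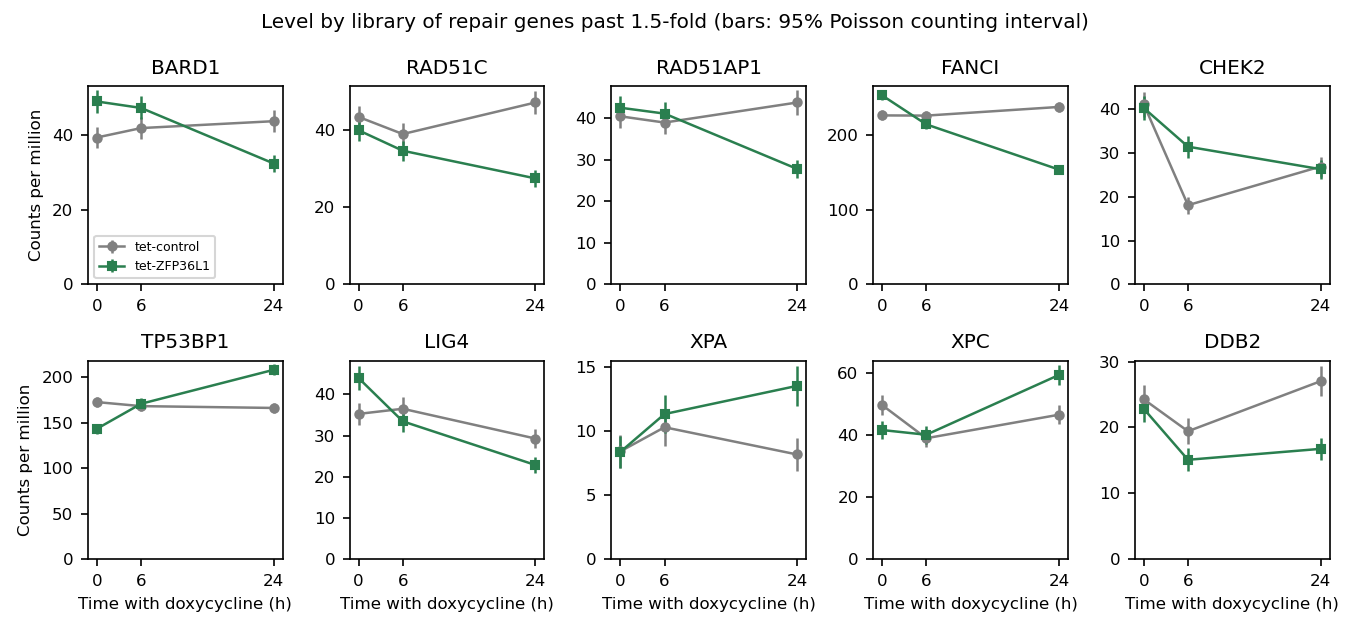
Level in each library (y axis, CPM from 0; x axis, hours with doxycycline) of the 10 repair genes past 1.5-fold, in tet-control (grey circles) and tet-ZFP36L1 (green squares), with 95% Poisson counting intervals as bars. BARD1, RAD51C, RAD51AP1, FANCI and LIG4 are lowest in tet-ZFP36L1 at 24 h, TP53BP1, XPA and XPC are highest there, and the low CHEK2 library is tet-control at 6 h (18.1 CPM).

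Mismatch repair was represented by MSH6, which recognises mispaired bases, and PMS2, the endonuclease subunit that follows it. Neither was past 1.5-fold. MSH6 had 0.07 (-0.03 to 0.17) at 6 h and 0.12 (0.03 to 0.21) at 24 h. PMS2 had -0.06 (-0.28 to 0.17) and -0.07 (-0.29 to 0.16), and 34.2% of its 31-base words are shared with other genes, including PMS2CL.

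ATM and ATR, the kinases that open the response to double-strand breaks and to single-stranded DNA, were not past 1.5-fold. ATM stood at 88.1, 84.1 and 85.3 CPM in tet-control and 97.9, 97.9 and 126.9 CPM in tet-ZFP36L1, giving 0.07 (-0.07 to 0.20) at 6 h and 0.42 (0.29 to 0.55) at 24 h. Its highest library was tet-ZFP36L1 at 24 h. ATR had -0.35 (-0.52 to -0.19) and 0.14 (-0.03 to 0.31), the second turning to -0.51 with the deposited TPM, with its highest level in tet-control at 6 h (71.6 CPM).

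Checkpoint kinases and adaptors gave the one call at 6 h. CHEK2, the kinase that ATM activates (ENSG00000183765; chromosome 22, 28687743 to 28742422, minus strand), stood at 41.2, 18.1 and 26.9 CPM in tet-control and 40.3, 31.5 and 26.3 CPM in tet-ZFP36L1. The low value is the tet-control library of 6 h. The induction difference was 0.81 (0.58 to 1.04) at 6 h and -0.00 (-0.22 to 0.21) at 24 h. From 0 h to 6 h it changed by -1.16 (-1.34 to -0.99) in tet-control and by -0.35 in tet-ZFP36L1, so both lines were below their 0 h level and the difference was set by the control line, in which 7.72% of all genes were lower by 1.5-fold at that time and 7.47% higher. The 6 h value was past 1.5-fold under all 9 alternatives run, from 0.61 to 1.24.

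By transcript, CHEK2-201 held 47.6%, 0.19% and 24.3% of the gene's estimated counts in tet-control and 43.6%, 31.01% and 41.7% in tet-ZFP36L1. CHEK2-209, also annotated as protein coding, held 14.6%, 38.7% and 32.6%, and 7.07%, 12.98% and 22.2%. CHEK2-201 was therefore nearly absent from the estimates of the library in which the gene was lowest. CHEK2 shares 14.6% of its 31-base words with other genes, and the pseudogenes CHEK2P2 to CHEK2P5 held at most 2 counts in a library.

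TP53BP1, the chromatin reader that limits resection and favours end joining (ENSG00000067369; chromosome 15, 43403061 to 43510728, minus strand), stood at 172.9, 168.4 and 166.4 CPM in tet-control and 143.5, 171.0 and 208.5 CPM in tet-ZFP36L1. It was both lowest and highest in tet-ZFP36L1, at 0 h and at 24 h. At 6 h the induction difference was 0.29 (0.19 to 0.39) and at 24 h it was 0.59 (0.50 to 0.69), a value close to the threshold that became 0.58 with DESeq2 size factors or a pseudocount of 5 and reached 1.103 with the deposited TPM. Exons of TUBGCP4 on the opposite strand cover 28.7% of its exon bases, and that gene had an induction difference of 0.18 at 24 h. The sources used here do not say whether counting took strand into account. Opposite-strand exons also cover 25.1% of the exon bases of RAD54L (LRRC41) and 23.6% of those of FANCA (ZNF276).

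CHEK1, the kinase downstream of ATR, had -0.02 (-0.18 to 0.15) at 6 h and -0.26 (-0.42 to -0.11) at 24 h. TOPBP1, which activates ATR, had -0.18 (-0.28 to -0.08) and -0.35 (-0.46 to -0.25), and its lowest library was tet-ZFP36L1 at 24 h (118.2 CPM). WEE1, the kinase that holds CDK1 inactive, was within 0.21 of 0 at both times.

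Of the end-joining genes, 1 of 4 was lower by 1.5-fold at 24 h, beside 17.4% of all measured genes. All 4 lay below the all-gene median at 24 h, except that 1 did after centring by expression and 3 with protein-coding transcripts. Their own median of -0.21 became 0.07 after centring and 0.21 with equal housekeeping levels. LIG4, the ligase that seals the ends (ENSG00000174405; chromosome 13, 108207439 to 108218368, minus strand), stood at 35.2, 36.5 and 29.3 CPM in tet-control and 43.9, 33.4 and 22.8 CPM in tet-ZFP36L1. Its level was lower at 24 h than at 0 h in both lines, by -0.26 and -0.93 on the log2 scale. By the induction difference LIG4 had -0.44 (-0.65 to -0.23) at 6 h and -0.67 (-0.89 to -0.45) at 24 h. It was short of 1.5-fold with plain CPM (-0.50), equal housekeeping levels (-0.25), the deposited TPM (-0.51) and a pseudocount of 5 (-0.58).

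LIG4-201 held 60.8%, 68.6% and 74.3% of the LIG4 counts in tet-control and 84.6%, 61.1% and 57.7% in tet-ZFP36L1, with an induction difference of -1.07 at 6 h and -1.48 at 24 h. LIG4-203, a second protein-coding transcript, had 1.05 and 1.76. The shares of the 2 transcripts at 0 h already differed between the lines.

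The Ku subunits had the smallest counting intervals of the list. XRCC6 stood at 848.7, 791.6 and 873.4 CPM in tet-control and 717.9, 858.9 and 644.4 CPM in tet-ZFP36L1, and XRCC5 at 750.3, 731.5 and 792.7 CPM and at 761.4, 852.4 and 686.4 CPM. Both were higher in tet-ZFP36L1 at 6 h than in the same line at 0 or 24 h, and both were lowest over all libraries in tet-ZFP36L1 at 24 h. The induction differences were 0.36 (0.31 to 0.40) and -0.20 (-0.24 to -0.15) for XRCC6, and 0.20 (0.15 to 0.25) and -0.23 (-0.27 to -0.18) for XRCC5. The 24 h differences turned positive with equal housekeeping levels, to 0.23 for XRCC6 and 0.20 for XRCC5, and after centring by expression, to 0.09 and 0.05. Of the 31-base words of XRCC6, 27.7% are shared with other genes. PRKDC, the kinase that Ku recruits, had -0.44 (-0.50 to -0.37) at 6 h and -0.05 (-0.11 to 0.01) at 24 h.

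PARP1, which senses strand breaks and marks them with poly(ADP-ribose), stood at 417.0, 425.2 and 427.2 CPM in tet-control and 401.9, 482.4 and 529.3 CPM in tet-ZFP36L1. The tet-control libraries were level and those of tet-ZFP36L1 were higher at 6 and 24 h. The induction difference was 0.23 (0.17 to 0.30) at 6 h and 0.36 (0.30 to 0.42) at 24 h, short of 1.5-fold.

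Nucleotide excision repair, which removes bulky and ultraviolet lesions, was represented by 5 members. Their median was 0.25 after 6 h of doxycycline, 0.44 after 24 h, and 0.19 at the later time with protein-coding transcripts alone. The 19 other measured genes of that pathway had medians of 0.00 and -0.19. At 24 h, 2 of 5 were higher by 1.5-fold (XPA and XPC) and 1 was lower (DDB2), beside 13.9% and 17.4% of all measured genes. Under each scaling tried, 1 of 5 lay below the all-gene median. The median of these 5 exceeded that of the 9 recombination genes by 0.83 at 24 h and that of the Fanconi core by 0.78; these differences were not tested. A difference between group medians does not move with a common scaling of a library. Over the alternatives, with pseudocount changes included, the first ranged from 0.53 to 0.83 and the second from 0.51 to 0.78. The other measured genes of these pathways did not show this order. Their 24 h medians were -0.19 for excision repair (19 genes), -0.12 for recombination and resection (32) and 0.125 for the Fanconi pathway (15).

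XPC, which finds helix distortions across the genome (ENSG00000154767; chromosome 3, 14145147 to 14178783, minus strand), stood at 49.6, 38.9 and 46.5 CPM in tet-control and 41.5, 40.02 and 59.3 CPM in tet-ZFP36L1. Its highest library was tet-ZFP36L1 at 24 h. For XPC the induction difference came to 0.29 (0.10 to 0.49) at 6 h and 0.60 (0.42 to 0.78) at 24 h. With protein-coding transcripts alone the 24 h value was 0.19. XPC-205, annotated for nonsense-mediated decay, held 22.4%, 37.9% and 35.2% of the XPC counts in tet-control and 23.3%, 33.0% and 50.4% in tet-ZFP36L1, and it had an induction difference of 1.04 at 24 h, whereas the protein-coding XPC-201 had 0.15. The 24 h difference of XPC thus lay in the estimates for the decay-annotated transcript.

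XPA, which verifies the lesion (ENSG00000136936; chromosome 9, 97674909 to 97697357, minus strand), stood at 8.39, 10.3 and 8.15 CPM in tet-control and 8.35, 11.3 and 13.5 CPM in tet-ZFP36L1. Its counts were among the lowest of the list, with a mean of 200.8, and its intervals were wide: 0.14 (-0.26 to 0.53) at 6 h and 0.70 (0.31 to 1.09) at 24 h. The call ended with the deposited TPM (0.39), a pseudocount of 5 (0.50) and after centring by expression (0.50).

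DDB2, which binds ultraviolet lesions in chromatin and is a p53 target (ENSG00000134574; chromosome 11, 47214465 to 47239240, plus strand), stood at 24.3, 19.4 and 27.0 CPM in tet-control and 22.8, 15.1 and 16.7 CPM in tet-ZFP36L1. Both lines were lower at 6 h than at 0 h, and tet-control was higher again at 24 h. In DDB2 the induction difference amounted to -0.27 (-0.55 to 0.01) at 6 h and -0.59 (-0.85 to -0.33) at 24 h, and was past 1.5-fold under 3 of 8 alternatives, with -0.31 for protein-coding transcripts alone and -0.17 with equal housekeeping levels.

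ERCC2, the helicase of TFIIH, stood at 153.0, 175.8 and 161.9 CPM in tet-control and 155.0, 255.1 and 222.0 CPM in tet-ZFP36L1. Within tet-ZFP36L1 it was the single member past 1.5-fold from 0 h to 6 h (0.72, where 9.09% of all genes were higher), none being lower (15.6%), and its induction difference was 0.52 (0.42 to 0.61) at 6 h and 0.44 (0.34 to 0.53) at 24 h. ERCC1, a subunit of the nuclease that cuts on the 5′ side, had 0.25 (0.14 to 0.35) and 0.06 (-0.04 to 0.16). Exons of CD3EAP on the opposite strand cover 28.6% of the exon bases of ERCC1. CD3EAP had induction differences of -0.72 at 6 h and -1.29 at 24 h.

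**Figure D4:**
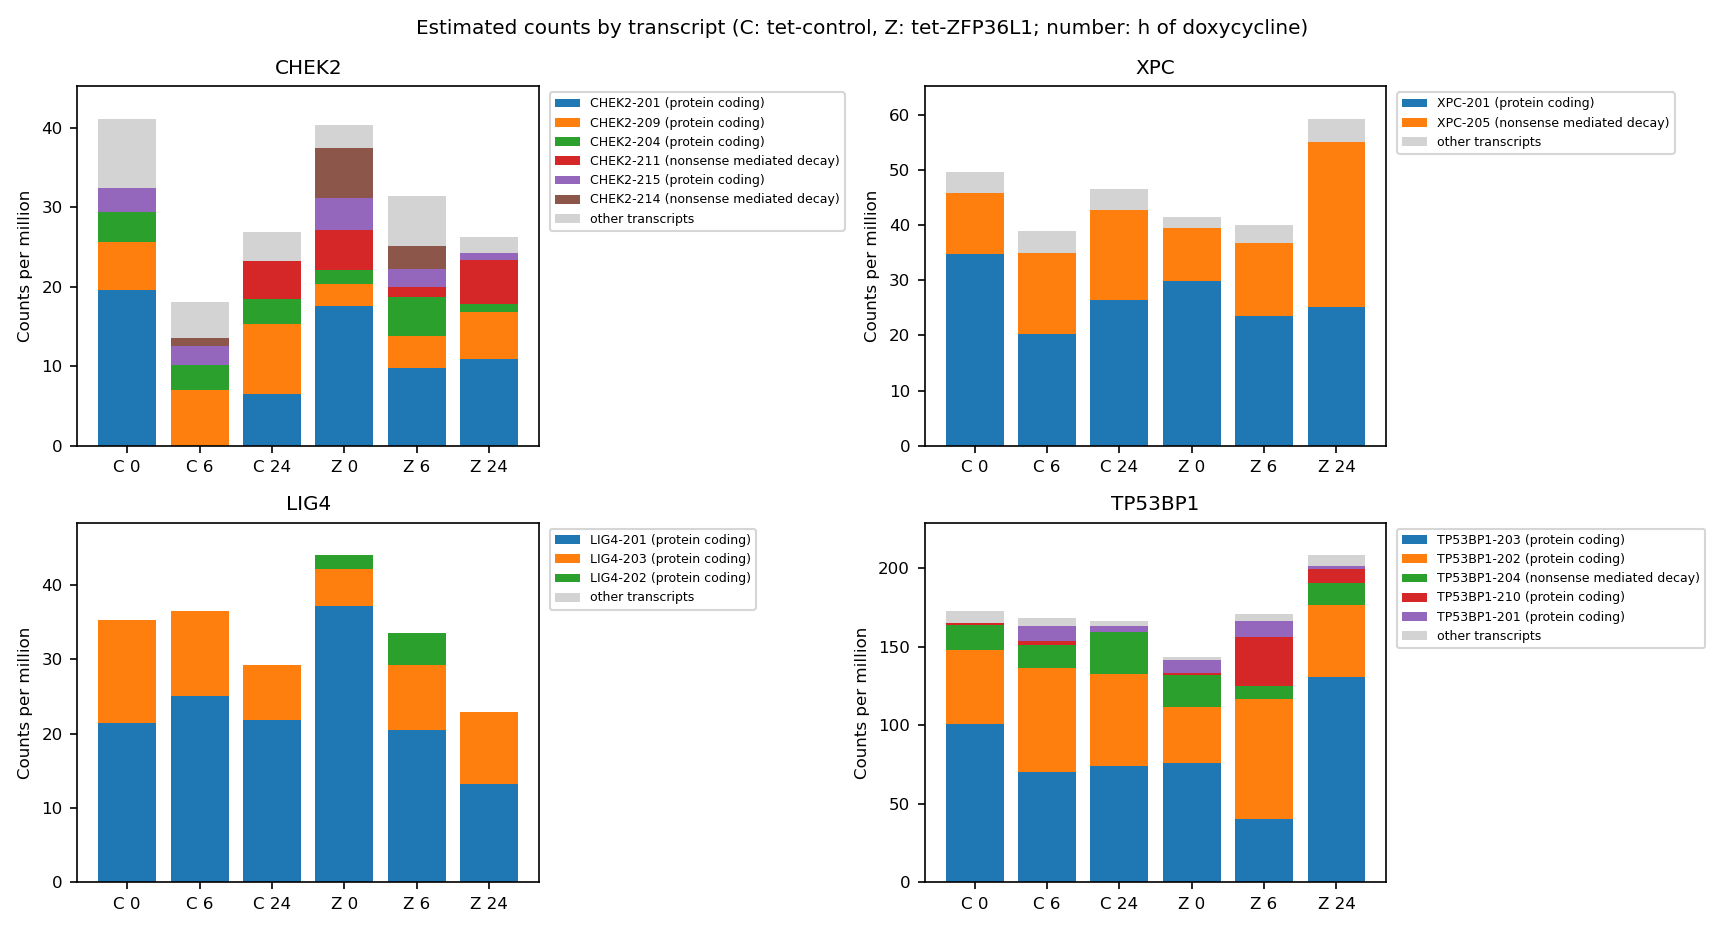
Estimated counts per transcript (stacked bars, y axis in CPM from 0) of CHEK2, XPC, LIG4 and TP53BP1 in the 6 libraries (x axis; C for tet-control, Z for tet-ZFP36L1, with hours of doxycycline). CHEK2-201 is nearly missing in tet-control at 6 h, XPC-205 makes up 50.4% of XPC in tet-ZFP36L1 at 24 h, and the make-up of LIG4 at 0 h differs between the lines.

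Taken by line rather than by difference, tet-control at 24 h had 1 member lower than at 0 h by 1.5-fold, CHEK2, and none higher (1.92% and 1.6% of all genes). In tet-ZFP36L1 at 24 h, 6 members were lower (BARD1, RAD51AP1, FANCM, FANCI, CHEK2 and LIG4) and 1 was higher (XPA), beside 17.0% and 11.8% of all genes. Set directly against tet-control at 6 h, PRKDC was lower in tet-ZFP36L1 at -0.66 and CHEK2 higher at 0.78 (15.3% and 12.4% of all genes). Set against it at 24 h, 9 members were lower in tet-ZFP36L1 and 1 higher (20.3% and 18.4% of all genes). These were RAD54L at -0.79, RAD51C, XRCC2, FANCI, RAD51AP1, FANCA, FANCB, FANCD2 and DDB2, with XPA higher at 0.69. Some of that list, such as RAD54L, was already lower at 0 h.

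From 6 h to 24 h the induction difference was lower by at least 1.5-fold in 5 members and higher in none (9.13% and 12.6% of all genes). The 5 were CHEK2 at -0.82, RAD51AP1 at -0.72, FANCM at -0.71, BARD1 at -0.60 and RAD51C at -0.60. This value does not involve the 0 h libraries.

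The expression level moved with the 24 h values. With all measured genes ordered by mean count into 5 bins of like size, the median induction difference at 24 h went from 0.23 in the lowest bin to -0.21 in the highest. Most members were in the upper 3 bins, which held 10, 13 and 12 of them from the middle upwards. In the middle bin they had a median of -0.39, beside -0.04 for all genes there, and in the next one -0.21, beside -0.09. In the highest bin the members' median was 0.00, beside -0.21. After centring by expression the members' median at 24 h was -0.09.

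Cell cycle genes were read beside these values. Of 22 mitotic genes, 21 were lower by 1.5-fold at 24 h (median -0.91), while 1 was at 6 h (median 0.05). Of 38 measured S phase genes, 7 (18.4%) were lower at 24 h, beside 17.4% of all genes, and 3 at 6 h (medians -0.32 and 0.12), including RRM2, the small subunit of ribonucleotide reductase, at -1.45 and CDC45, a part of the replicative helicase, at -1.28. The S phase genes already differed at 0 h, when 35 of 38 were below 0 in tet-ZFP36L1 relative to tet-control (median -0.28). From 0 h to 6 h, tet-control had 34 below 0 (median -0.23), while tet-ZFP36L1 had 24 (median -0.18). Compared directly at 24 h, 20 S phase genes were lower in tet-ZFP36L1 by 1.5-fold, beside 20.3% of all genes. The part of the cell cycle genes in the values of the recombination and Fanconi genes was not tested.

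Of 157 other repair and damage response genes, 154 were measured. At 6 h, 10 were lower and 10 higher by 1.5-fold, with a median of 0.09, and at 24 h, 24 were lower and 10 higher, with a median of -0.12. As shares these were 6.49% in each direction at 6 h, beside 14.3% and 7.02% of all genes, and 15.6% and 6.49% at 24 h, beside 17.4% and 13.9%. Of 32 other recombination genes, 3 were lower at 24 h and 1 higher, with POLQ, the polymerase of alternative end joining, at -0.70, RMI1, a partner of BLM, at -0.70, and RAD52 higher at 0.75. Of 15 other Fanconi genes, 3 were lower and 1 higher (FAAP100 at 0.67). Their 24 h median was 0.125, and 9 of the 15 were above 0. UBE2T, the ubiquitin-conjugating enzyme that works with FANCL on FANCD2 and FANCI, stood at 70.2, 60.0 and 76.7 CPM in tet-control and 80.5, 40.4 and 27.8 CPM in tet-ZFP36L1. Its induction difference was -0.76 at 6 h and -1.64 (-1.81 to -1.48) at 24 h, and the 24 h value was further from 0 than that of any of the 40 members. ERCC4, the nuclease partner of ERCC1, had -0.69 and -0.89.

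Among mismatch and base excision repair genes, 4 of 29 were lower at 24 h and 3 higher, with TDP2 at -2.24 (2.33 to 8.05 CPM over the libraries), the thymine glycosylase TDG at -1.30 and higher values for the uracil glycosylase SMUG1 at 0.88 and the glycosylase NEIL1 at 0.96 (1.92 to 8.01 CPM). Of 7 other end-joining genes, XRCC4, the partner of LIG4, was lower at -0.86, and 3 were higher, APLF at 1.03 with the largest value. Of the 19 other excision repair genes, 6 (31.6%) were lower at 24 h and 0 higher, beside 17.4% and 13.9% of all genes, led by MNAT1 (-1.50) and CCNH (-1.15), both subunits of the kinase module that TFIIH carries. Of 36 other signalling genes, 4 were lower and 2 higher, with CDC25A, the phosphatase that CHEK1 restrains, at -1.04 and ABRAXAS1, a subunit of a BRCA1 complex, at 1.12. In translesion synthesis and tolerance, 3 of 17 were lower and none higher, with UBE2N at -1.09 and POLK at -0.87. Of 25 measured p53 targets, 7 were lower and 6 higher at 24 h, with CDKN1A at -2.07 and MDM2 at -1.16 among the lower and SESN2 at 1.18 and BBC3 at 0.90 among the higher; XPC and DDB2 are on that list too.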

How the data were processed

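Total RNA was isolated on columns and libraries of 6 J82 samples were read on a BGISEQ-500, per the labels' protocols. Of tools and builds, kallisto, DESeq2 and hg19 appear in the submitters' processing notes, with versions not given in the sources used here. The deposited tables list 196354 transcripts per sample with estimated counts, which kallisto divides among transcripts and which need not be whole, and the deposited TPM, which sum to 1000000 per library.

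Identifiers of 181857 transcripts were found in GENCODE 29 (GRCh38). Unmatched transcripts held 5.12% to 5.46% of counts and were left out. No coordinate was converted. Expected counts as deposited were summed per gene and rounded, giving 19605308 to 20245037 per library, and scaled with TMM factors (edgeR 4.0.16, R 4.3.3) over genes averaging 10 counts or more. All differences are taken on the log2(CPM + 0.5) scale, on which changes of low genes appear smaller, among genes averaging 50 counts or more. A gene was called lower or higher past 1.5-fold. Intervals are 95% delta-method (or Poisson) intervals of counting error only, since reads lack molecular identifiers and so do not stand for single molecules, and kallisto's assignment error is not in them. With 1 library per group no count model was fitted.

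The members and lists were chosen with earlier results of these data known. Values in every library are given for members past 1.5-fold, and up to 2 others per group are given by value, with the remaining ones by range, apart from XRCC3 and PRKDC, added because the lines moved in opposite directions. Of each other list up to 2 of the largest differences each way at 24 h are named. The 3′ UTR was that of the transcript with most TPM on average among those with a stop codon. Alternatives were DESeq2 1.42.0 size factors, plain CPM, equal housekeeping levels, the deposited TPM, centring in 20 expression bins, other pseudocounts (0.1 and 5), minimum counts and thresholds, protein-coding transcripts alone and, for 6 h, scaling without tet-ZFP36L1 at 24 h. Restricting the 3′ UTR search to protein-coding transcripts was added after seeing the data. Scripts ran in Python 3.11.15 (numpy 2.4.6, pandas 2.3.3, matplotlib 3.10.9) and were tested on simulated data.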

Additional observations from a re-analysis of the deposited data

Results flagged for a closer look

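In 6 repair genes the change from 0 h had opposite signs in the 2 lines, with both counting intervals leaving out 0. There is 1 library per group and the difference was not tested. This pattern was not counted over all measured genes, so whether 6 is unusual was not tested. Among all genes, 32.0% of intervals lay below 0 and 32.2% above it in tet-control at 6 h. In tet-ZFP36L1 at 6 h these shares were 38.1% and 35.5%. At 24 h they were 19.4% and 19.6% in tet-control, and 40.2% and 35.9% in tet-ZFP36L1. At 24 h BARD1 changed by 0.15 on the log2 scale in tet-control and by -0.59 in tet-ZFP36L1, a difference of -0.74. FANCI changed by 0.07 and -0.72, a difference of -0.79. At 6 h XRCC3, a recombination gene, changed by -0.18 and 0.24, a difference of 0.42, and PRKDC changed by 0.06 and -0.38, a difference of -0.44. Exons of KLC1 on the opposite strand cover 76.7% of the exon bases of XRCC3.

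Both Ku genes were marked at both times, with the signs exchanged. XRCC6 changed by -0.10 in tet-control and 0.26 in tet-ZFP36L1 at 6 h (difference 0.36), and by 0.04 and -0.16 at 24 h (difference -0.20). XRCC5 changed by -0.04 and 0.16 at 6 h (difference 0.20), and by 0.08 and -0.15 at 24 h (difference -0.23). Their high counts make the counting intervals narrow, and differences of this size are below the 1.5-fold threshold. The 24 h differences turned positive with equal housekeeping levels (0.23 for XRCC6 and 0.20 for XRCC5) and after centring by expression (0.09 and 0.05).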

How the results depend on the processing

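With 1 library per group, neither culture variation nor a library left out can be assessed, and rankings near 1.5-fold (TP53BP1, DDB2, XPC) rest on the threshold. No paired analysis was possible because each group holds 1 library. Of 75 summary values under alternatives, 56 stayed within 1.5 times the main count or, for the medians, within the members' typical counting interval. That interval is the median one of single members and is not the error of a median over the list. No member's called difference changed sign, while 14 members whose uncalled 24 h interval left out 0 did so, 13 of them with equal housekeeping levels; of 81 alternative values for the 10 called differences, 53 stayed past 1.5-fold.

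For members lower at 24 h (6), plain CPM gave 1, equal housekeeping levels 0, the deposited TPM 3, a pseudocount of 5 3 and a 2-fold threshold 0. For members higher at 24 h (3), plain CPM gave 5, equal housekeeping levels 7, a pseudocount of 5 0, a 2-fold threshold 0, and asking in addition for the line's own change, or for the difference from tet-control at that time, 1 each. For members higher at 6 h (1), equal housekeeping levels, the deposited TPM and protein-coding transcripts gave 2 each, while a 2-fold threshold and the added own change gave 0. For members lower at 6 h (0), the deposited TPM gave 1. The members' median at 24 h (-0.20) was -0.031 with plain CPM and 0.22 with equal housekeeping levels. The stricter thresholds lower counts by construction, and the scalings shift all genes; for the others the cause was not tested.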
